A study of Mus musculus with 12 samples.

Results

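C/D box snoRNA genes make the small nucleolar RNAs (snoRNAs) of the box C/D class, and this account follows their reads in liver Ribo-seq libraries of mice fed a high-fat diet without lycopene (HFD) or with it (LYC). The genes were taken as the entries of the Ribo-seq table whose symbol is Snord followed by a digit and whose RPKM (reads scaled to gene length and library size) was above 0 in at least 2 of the 6 libraries. Of 25033 entries, 74 had such a symbol and 66 met the rule. The members were thus chosen by the same RPKM values that are compared below, though not by the direction of any difference. A total of 44 of the 66 were above 0 in all 6 libraries, 8 in 5, 6 in 4, 6 in 3 and 2 in 2. Just inside the rule were Snord14a, with 16.7 RPKM in HFD1 and 175 RPKM in HFD2, and Snord93, with 8.15 RPKM in HFD1 and 30.3 RPKM in HFD2. Just outside it were Snord19 and Snord98, above 0 in HFD2 alone with 21.0 and 8.11 RPKM, and Snord53, above 0 in LYC2 alone with 94.6 RPKM. The other 5 symbols, Snord1a, Snord45c, Snord70, Snord116l1 and Snord116l2, were at 0 in every library.

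Livers came from male C57BL/6 mice aged 16 weeks, fed their diets from the age of 8 weeks on for 8 weeks. Both groups ate the high-fat diet. As treatment, the LYC labels give that diet alone, so the lycopene is taken from the sample titles and the study's text. Each group had 3 Ribo-seq libraries, named here HFD1 to HFD3 and LYC1 to LYC3, described as made from RNase I-digested lysate whose ribosomes were pelleted through sucrose and depleted of rRNA. The extraction label has RNA or footprints pooled before library construction, and the study's methods have digested samples pooled ahead of the sucrose step without saying how many went into a library. The study's text calls the 3 libraries of a group biological replicates. If the pooling was within a group, p-values measure only technical spread. Depth was unequal between the groups. The steps of the RPKM values gave library totals of 834410 to 4405541 reads in HFD and 311050 to 412116 reads in LYC, so that 1 read on a gene of 60 bases was worth 3.78 to 20.0 RPKM in HFD and 40.4 to 53.6 RPKM in LYC.

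Box C/D snoRNAs are short nucleolar RNAs that are not translated. Most of them pair with ribosomal RNA and direct fibrillarin, a methyltransferase, to methylate the 2'-O position of a chosen nucleotide, while a few (U8, U13, U14 and U22, the products of Snord118, Snord13, the Snord14 genes and Snord22) act in the cleavage or modification of the ribosomal RNA precursor. Conserved motifs near the 5' and 3' ends, the C box and the D box, hold the core proteins. In mammals most lie in introns of other genes, often those of ribosomal proteins and translation factors or of non-coding host genes such as Gas5 and the Snhg genes, and are released from the spliced intron. Their values here are levels of reads in libraries labelled Ribo-seq and say nothing of translation. Nearly the same reads were also deposited under an mRNA label, so it is not settled which kind of library they came from.

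The sequences of 10 members are shown because the sections below turn on them: genes of the same host that moved in opposite directions, near-identical copies, and Snord37, which had the largest positive log2 fold change. Sequences are those of GENCODE genes of GRCm38.p6, read 5' to 3' on the strand of the gene. Capitals mark the C box (NTGATGA, where N is any base) and the D box (CTGA), searched on the gene's own strand in the 33.3% of its length nearest the 5' end and the 3' end. All 66 members held a D box and 43 (65.2%) a C box by these letters. In windows of the same length just upstream of the members 12.1% held the D box letters and 0 of 66 the C box letters, and among the 36 H/ACA snoRNA genes of the table, the class that guides pseudouridylation, 19.4% held the D box letters and 0 the C box letters. Letters not found in these windows say nothing about the proteins.

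Snord15a at chr7:99482785-99482932 (minus strand) and Snord15b at chr7:99479563-99479707 (minus strand) lie in introns of Rps3, which encodes a protein of the small ribosomal subunit, and were identical at 66.2% of aligned bases.
Snord15a: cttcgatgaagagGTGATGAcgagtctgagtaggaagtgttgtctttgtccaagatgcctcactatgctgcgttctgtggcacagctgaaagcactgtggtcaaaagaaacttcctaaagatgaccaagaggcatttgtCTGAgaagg
Snord15b: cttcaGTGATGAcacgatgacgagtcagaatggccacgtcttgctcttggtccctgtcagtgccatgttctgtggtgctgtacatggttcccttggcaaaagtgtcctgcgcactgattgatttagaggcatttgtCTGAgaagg

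Snord49b at chr11:62603079-62603150 (plus strand), Snord49a at chr11:62603450-62603521 (plus strand) and Snord65 at chr11:62604515-62604586 (plus strand) lie in introns of the long non-coding gene 2410006H16Rik.
Snord49b: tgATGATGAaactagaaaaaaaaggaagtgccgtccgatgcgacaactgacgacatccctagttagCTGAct
Snord49a: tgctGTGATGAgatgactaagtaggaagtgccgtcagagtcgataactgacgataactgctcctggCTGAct
Snord65: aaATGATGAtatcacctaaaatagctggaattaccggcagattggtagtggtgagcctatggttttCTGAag

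Snord14c at chr9:40803583-40803668 (plus strand) and Snord14d at chr9:40803995-40804080 (plus strand) lie in introns of Hspa8, the gene of the constitutive Hsc70 chaperone. They were 97.7% identical.
Snord14c: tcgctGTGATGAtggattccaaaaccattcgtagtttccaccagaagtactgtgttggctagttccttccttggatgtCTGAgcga
Snord14d: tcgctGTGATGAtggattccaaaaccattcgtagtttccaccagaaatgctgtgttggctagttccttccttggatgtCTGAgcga

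Snord1b at chr11:116674148-116674222 (plus strand) and Snord1c at chr11:116672506-116672581 (plus strand) lie in introns of the non-coding Snhg16 and were 97.4% identical.
Snord1b: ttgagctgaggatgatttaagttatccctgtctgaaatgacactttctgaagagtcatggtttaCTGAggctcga
Snord1c: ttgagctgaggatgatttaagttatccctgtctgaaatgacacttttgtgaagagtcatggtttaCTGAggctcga

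Snord37 at chr10:81178950-81179013 (plus strand) lies in an intron of Eef2, the gene of translation elongation factor 2.
Snord37: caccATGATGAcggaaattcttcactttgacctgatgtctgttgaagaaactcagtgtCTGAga

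The spans used for the RPKM values are RefSeq's, which are shorter for some members (53 bases for Snord37, 57 for Snord65). For 64 of the 66 members the length implied by the RPKM values was within 1 base of RefSeq's. Snord14d was scaled to 23 bases and Snord14a to 22, where the RefSeq entries have 87, so their deposited levels cannot be set beside those of other genes.

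Reads on C/D box snoRNA genes took a larger share of the LYC libraries than of the HFD libraries. Of the reads on listed genes they made up 1.47%, 1.31% and 1.04% under HFD against 6.64%, 3.05% and 6.06% under LYC, in the order of replicates 1, 2 and 3 used throughout. The groups did not overlap, with means of 1.27% ± 0.214 (SD, n = 3) in HFD and 5.25% ± 1.93 (SD, n = 3) in LYC (p = 0.1, exact permutation test, two-sided, the smallest value that 3 against 3 libraries allow). LYC2 lay lowest of its group. In bulk liver, a change in the number of cells of a type and a change in RNA per cell cannot be told apart.

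The make-up of this share differed between the groups as well. Snord118 (U8) took 48.6%, 49.5% and 39.2% of the C/D reads in HFD against 12.3%, 20.8% and 17.4% in LYC. Snord14d took 13.9%, 20.2% and 23.5% in HFD against 1.68%, 2.24% and 2.73% in LYC. Snord43, in an intron of the ribosomal protein gene Rpl3, went the other way, from 9.92%, 8.01% and 7.83% in HFD to 41.8%, 31.6% and 41.7% in LYC. Mean shares of Snord37, Snord85 and Snord2 rank next among the gains, with 0.122%, 1.50% and 0.405% under HFD against 11.9%, 12.9% and 6.69% under LYC. Without Snord118, the member of most reads over the series, the share of all reads went from 0.683% ± 0.0633 to 4.41% ± 1.78 (SD, n = 3 each). Without Snord43, which took the largest part in LYC, it went from 1.16% ± 0.183 to 3.16% ± 0.948 (SD, n = 3 each), still without overlap, and the difference fell from 3.98 to 2.00 percentage points.

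**Figure D1:**
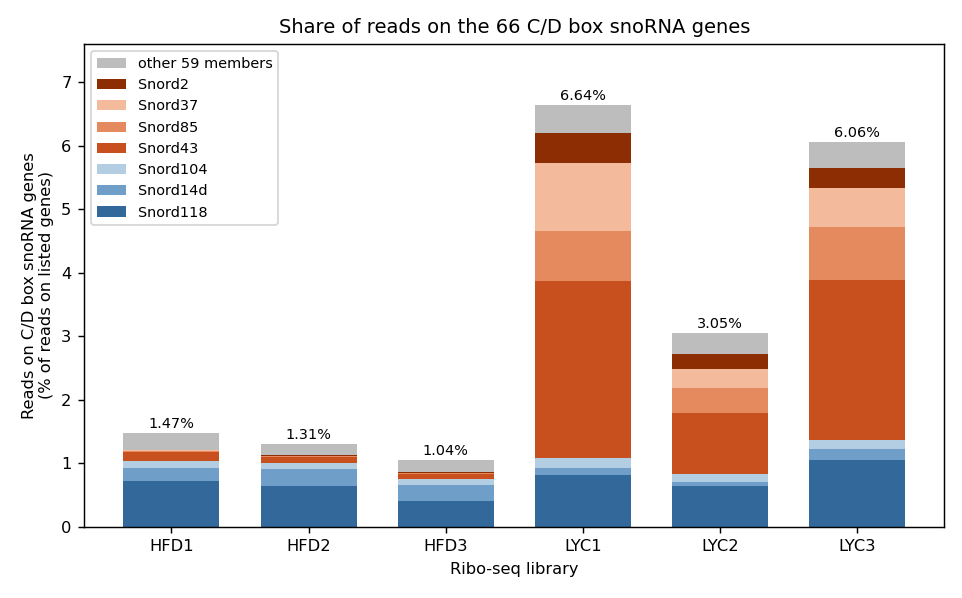
Percent of reads on listed genes (vertical axis) that fell on the 66 C/D box snoRNA genes in each Ribo-seq library (horizontal axis), with 7 members as coloured blocks and the other 59 in grey. The LYC bars reach 3.05% to 6.64% and the HFD bars 1.04% to 1.47%, and the Snord43, Snord85, Snord37 and Snord2 blocks make up most of the LYC bars.

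Gene by gene, RPKM values were scaled with TMM factors and compared on the log2(RPKM + 1) scale with limma over all 5624 genes with enough reads. On that scale differences of low genes come out too small, except where a library is at 0, since the fold change then rests on the added 1 and can come out too large. A call, higher or lower, needed a log2 fold change beyond 1 in either direction and a limma p-value under 0.01 before adjustment. Adjusted p-values are those of Benjamini and Hochberg over the 5624 genes. The background of calls over those genes was 7.08% higher and 6.37% lower. Of the 66 snoRNA genes 36 were tested and 30 were not. Among the 36, 18 were called higher, 5 lower and 13 neither, with a median log2 fold change of 1.15 where all tested genes had -0.09. These counts lean on the read minimum, since 10 of the 36 passed it with fewer than 3 HFD libraries over the cutoff and 7 with fewer than 3 LYC libraries. Those of them over the cutoff in 1 group alone had to differ to be tested at all, so their p-values are a description. Among them were Snord16a, Snord71, Snord72, Snord87, Snord96a and Snord99, with 0 HFD libraries over it. Snord1b, Snord1c, Snord35a and Snord65 had 0 LYC libraries over it. Snord37 and Snord100 had 1 HFD library over it and Snord15a had 2. Of the 19 that passed in all 6 libraries, 8 were called higher, 1 lower and 10 neither, with a median of 0.86.

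Read against other short genes the picture shifted. When each library's trend of level on gene length was removed, 9 of the 18 higher calls remained and no other was added, the lower calls numbered 13 and included all 5, and the median of the 36 became -0.41. Of all 5624 tested genes 365 were then called higher and 320 lower. That trend is fitted through the shortest genes of the table, among which these snoRNAs themselves stand. Other classes of short RNA were counted in the same way, under the same read minimum that admits genes through the group where they are high. Of 16 H/ACA snoRNA genes tested by limma 12 were called higher and 0 lower, with 1 lower at an unadjusted p below 0.05 (median log2 fold change 3.33), and of 48 microRNA genes 23 were called higher and 5 lower (median 1.42). Of all 34 H/ACA genes above 0 in at least 2 libraries 16 lay above HFD in every LYC library, 1 lay below and 17 overlapped, and of 177 microRNA genes 39 lay above, 29 below and 109 overlapped. By the same deposited values 5.46% of all 14016 genes above 0 in at least 2 libraries lay above and 25.5% below. With scaling on the C/D genes alone the median became -0.21, with 14 higher and 13 lower, while the median of all genes went to -1.31. Under that scaling 82 of all 5624 tested genes were called higher and 3096 lower, so the 13 lower calls are not above the background.

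**Figure D2:**
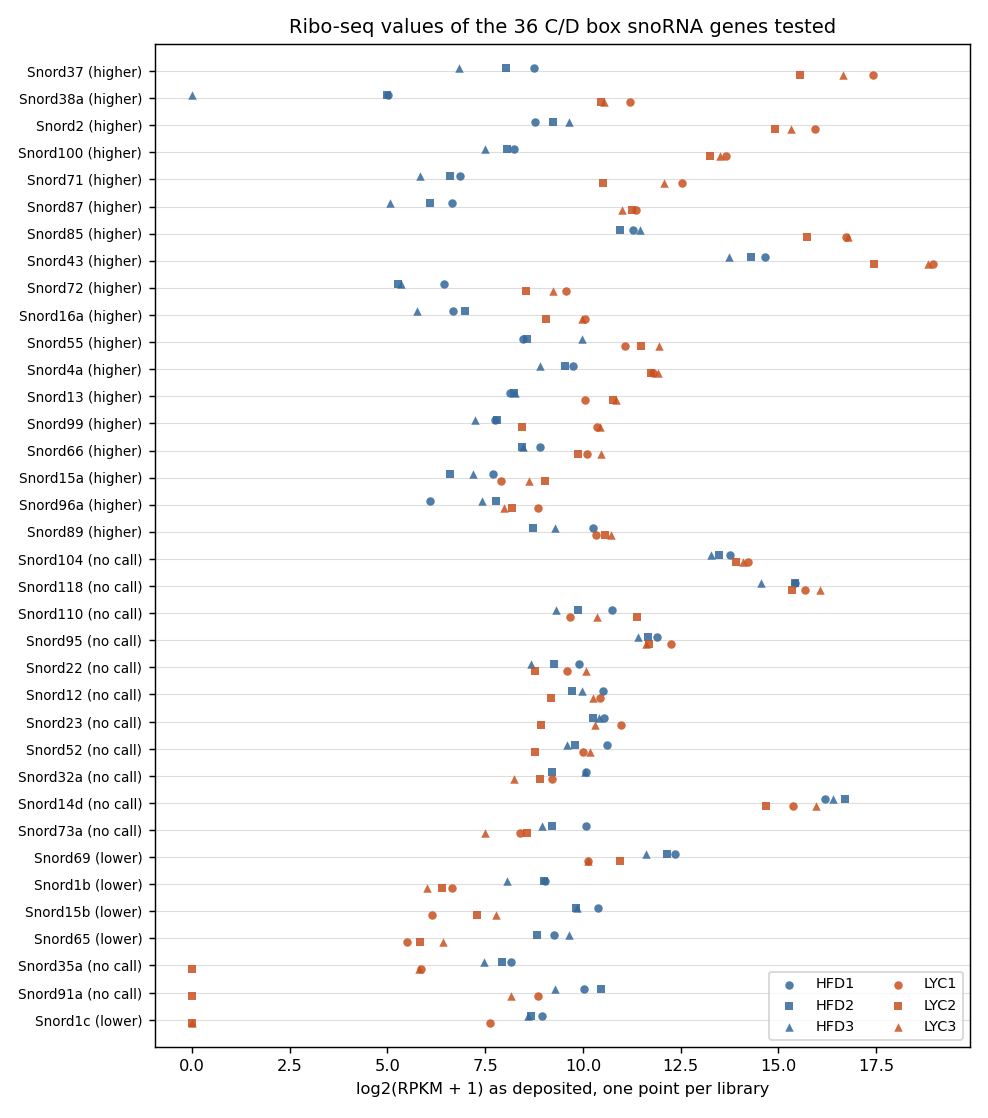
Deposited RPKM of the 36 tested members as log2(RPKM + 1) on the horizontal axis, 1 point per library (blue HFD, orange LYC, shape by replicate), with genes ordered from the highest log2 fold change (Snord37, 8.98) at the top to the lowest (Snord1c, -5.95) at the bottom and the call in brackets. The groups stand apart for the genes at the top, cross over in the middle, where no call was made, and stand apart in the other direction near the bottom, where a point at 0 marks a library with no read.

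The snoRNAs of ribosomal RNA processing did not move together. Snord118 makes U8, which is needed for the maturation of the large-subunit RNAs and whose gene lies outside any host gene. It stood at 44285, 43906 and 24153 RPKM in HFD against 52812, 41512 and 68208 RPKM in LYC. The groups overlapped, and its log2 fold change was 0.86 ± 0.46 (SE, limma, adjusted p = 0.238). Snord13 makes U13, a helper in the modification of the small-subunit RNA, and also has no host gene. It rose from 281, 301 and 306 RPKM to 1061, 1739 and 1832 RPKM, every LYC library above every HFD library, with a log2 fold change of 2.64 ± 0.25 (SE, limma, adjusted p = 0.000479). With the length trend removed Snord13 had 0.99 and Snord118 -0.57.

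U14 reads were lower in LYC without passing the threshold under the TMM scaling. Snord14d read 75372, 106368 and 86236 RPKM in HFD and 42876, 26558 and 63933 RPKM in LYC, all LYC libraries below all HFD libraries, yet its log2 fold change was -0.78 ± 0.50 (SE, limma, adjusted p = 0.328). At the annotated 87 bases these are means of 23615 ± 4158 RPKM and 11753 ± 4954 RPKM (SD, n = 3 each), below those of Snord118. Its near-copy Snord14c was far lower, at 316, 297 and 110.2 RPKM in HFD and 117, 37.0 and 55.8 RPKM in LYC, and was not tested. Because 50% of the 28-base words of either gene occur elsewhere in the genome, reads between the copies may have been split by the counting. Summed, Snord14c and Snord14d had a log2 fold change of -0.79 ± 0.43 (SE, limma, adjusted p = 0.254). Snord14d was called lower with the length trend removed (-3.38) and with scaling on the C/D genes alone (-2.14). Snord14a, in an intron of Rps13, was not tested and overlapped between groups. It had 1, 17 and 0 reads in HFD and none in the shallower LYC libraries. Snord22 (U22), in the non-coding Snhg1, overlapped between groups with means of 660.1 ± 279 and 759 ± 322 RPKM (SD, n = 3 each) and a log2 fold change of 0.49 ± 0.44 (SE, limma, adjusted p = 0.478).

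The 10 members with the highest mean level over both groups hold 5 called higher and 1 called lower, but a gene can enter that list through LYC alone. Of the 10 highest in HFD, 2 (Snord43 and Snord85) were called higher and 1 (Snord69) lower. Snord43 had the highest mean level in LYC, having ranked behind Snord14d and Snord118 in HFD. Its libraries read 25791, 20254 and 13757 RPKM in HFD and 512408, 179768 and 467152 RPKM in LYC, a log2 fold change of 4.49 ± 0.61 (SE, limma, adjusted p = 0.00365). LYC2 stood well below the other LYC libraries and still above every HFD library. These levels rest on a RefSeq entry of 48 bases, so their height against other members depends on that length, and the difference between groups does not.

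Snord37, in Eef2, had the largest positive log2 fold change of the members tested. It went from 429, 261 and 113 RPKM (128 reads in all) to 177170.3, 48527 and 103149 RPKM (6757 reads in all), a log2 fold change of 8.98 ± 0.63 (SE, limma, adjusted p = 8.46e-05). Its rank among the members by mean RPKM changed from 26 in HFD to 2 in LYC. Snord2, in Eif4a2, the gene of a translation initiation helicase, went from 437, 601 and 793 RPKM to 62371, 30873 and 40751 RPKM, a log2 fold change of 6.47 ± 0.42 (SE, limma, adjusted p = 6.13e-05).

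Snord85 read 2483, 1966 and 2803 RPKM in HFD and 108580.5, 54901 and 112664 RPKM in LYC (log2 fold change 5.50 ± 0.45, SE, limma, adjusted p = 0.000218). Snord100, in Rps12, went from 301, 264 and 179 RPKM to 12940.4, 9789 and 11662 RPKM with a log2 fold change of 5.85 ± 0.30 (SE, limma, adjusted p = 2.34e-05), the smallest adjusted p of the members. In all 5 genes the lowest LYC library lay above the highest HFD library, and each kept its call in every alternative tried. Snord37 and Snord100 had 1 HFD library over the read cutoff and were tested through LYC.

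Of the other abundant members, Snord69, in the nucleostemin gene Gnl3, fell from 5253, 4517 and 3148 RPKM to 1117, 1962 and 1110.4 RPKM, with a log2 fold change of -1.34 ± 0.31 (SE, limma, adjusted p = 0.0281). That call was lost without LYC1 and without LYC3, with log2 fold changes of -1.55 to -1.14 over the fits that left out 1 library each. Snord104, in the non-coding Gm36220, stood at 13788, 11446 and 9899.5 RPKM in HFD and 19204, 15590.1 and 17650.3 RPKM in LYC. Its groups were apart but its log2 fold change of 0.89 ± 0.35 (SE, limma, adjusted p = 0.135) passed neither threshold. Snord95, in Rack1, the gene of a small-subunit scaffold protein, overlapped with means of 3245 ± 545 and 3765 ± 940.1 RPKM (SD, n = 3 each). With scaling on the C/D genes alone Snord104 had -0.48 and Snord95 -0.86. With the length trend removed they had -0.96 and -1.39, and Snord95 was called lower.

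By kind of host, 47 of the 66 members lie in introns of 35 protein-coding genes, 16 in introns of 13 long non-coding genes and 3 (Snord13, Snord89 and Snord118) in no host. Each of the 63 hosted members falls in an intron of every annotated transcript of its host. Ribosomal protein genes host 21 of them. Of those 12 were tested, 8 called higher and 1 lower. In other protein-coding hosts 6 of 12 were called higher and 1 lower, in long non-coding hosts 2 of 9 higher and 3 lower, and of the 3 without host 2 higher. Of the higher calls 5 in ribosomal protein hosts, 3 in other protein-coding hosts and both in non-coding hosts had fewer than 3 HFD libraries over the cutoff and were tested through LYC. The 3 lower calls in non-coding hosts had 0 LYC libraries over the cutoff and were tested through HFD. Among members past it in all 6 libraries, 3 of 4 in ribosomal protein hosts were called higher and 0 lower, 3 of 8 in other protein-coding hosts higher and 1 lower, 0 of 4 in non-coding hosts either way, and 2 of 3 without host higher. The numbers are small and differences between kinds of host were not tested.

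**Figure D3:**
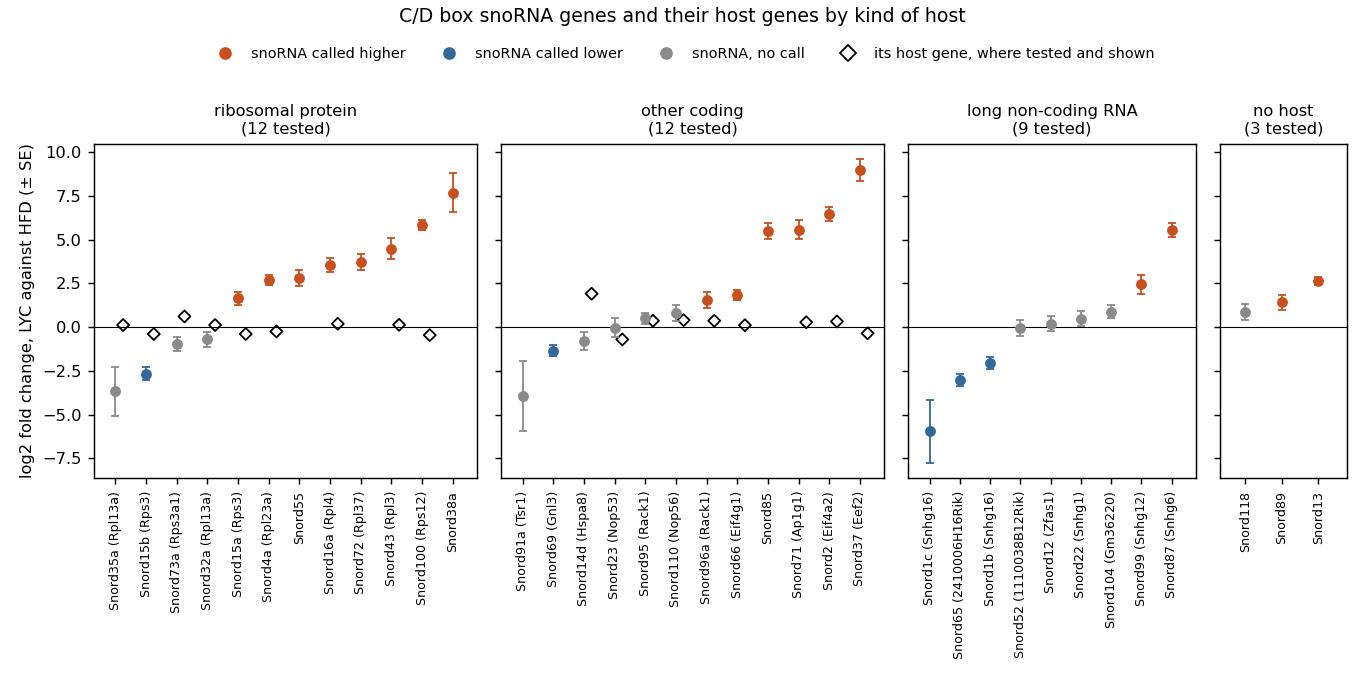
Log2 fold change of LYC against HFD with its SE (vertical axis) for the 36 tested members, in panels by kind of host, with the symbols of the hosts reported here in brackets and their own log2 fold changes as open diamonds where they were tested. Most diamonds lie near 0 whether the snoRNA lies high or low, and the diamond of Hspa8, at 1.91, stands above Snord14d, at -0.78.

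Within ribosomal protein hosts, Snord43, Snord100 and Snord15a were among the members called higher. Snord72 in Rpl37, Snord16a in Rpl4 and Snord4a in Rpl23a had log2 fold changes of 3.73, 3.53 and 2.72, and none overlapped: their lowest LYC values were 375, 529.9 and 3445 RPKM and their highest HFD values 85.6, 125 and 859 RPKM. Snord72 and Snord16a had 0 HFD libraries over the read cutoff and were tested through LYC. Of these 3 members, Snord16a alone kept its call with the length trend removed.

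In hosts that encode other proteins, Snord71 in Ap1g1, the gene of an adaptor subunit of clathrin-coated vesicles, went from 114.6, 95.8 and 56.2 RPKM to 5981, 1457 and 4322 RPKM, a log2 fold change of 5.58 ± 0.56 (SE, limma, adjusted p = 0.000651). Snord66, in the initiation factor gene Eif4g1, had a log2 fold change of 1.85 ± 0.29 (SE, limma, adjusted p = 0.0071) and Snord96a, in Rack1, one of 1.55 ± 0.44 (SE, limma, adjusted p = 0.0548). Snord71 and Snord96a had 0 HFD libraries over the read cutoff and were tested through LYC. The Snord96a call was lost without HFD1, LYC1, LYC2 or LYC3 in turn, with log2 fold changes of 1.09 to 1.77. It was also lost with library totals, with no filter on low values and by edgeR on recovered reads. With scaling on the C/D genes alone both Snord66 (0.48) and Snord96a (0.19) lost their calls. With the length trend removed both turned to values below 0, -0.16 for Snord66 and -0.26 for Snord96a.

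In non-coding hosts, Snord87 in Snhg6 went from 99.1, 67.5 and 32.4 RPKM to 2604, 2433 and 2033 RPKM, a log2 fold change of 5.56 ± 0.38 (SE, limma, adjusted p = 8.46e-05). The LYC libraries were close together and all above HFD. Snord87 and Snord99 had 0 HFD libraries over the read cutoff and were tested through LYC. Snord99 in Snhg12 had 2.44 ± 0.55 (SE, limma, adjusted p = 0.0249), with 1313, 344 and 1387 RPKM in LYC against 216, 223 and 149.8 RPKM in HFD, and lost its call without LYC1 or LYC3 (log2 fold changes of 2.05 to 3.16). With the length trend removed Snord99 had 0.42 and no call. Of the members without host, Snord89 was called higher at 1.42 ± 0.42 (SE, limma, adjusted p = 0.0609), a call that remained in 1 of the 6 fits that left out a library, with values of 0.95 to 1.88, and that turned to -0.26 with the length trend removed.

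Besides Snord69, the genes called lower were Snord65, Snord15b, Snord1b and Snord1c. Snord65 went from 611, 450.0 and 799 RPKM (246 reads in all) to 44.5, 56.4 and 85.1 RPKM (4 reads in all), a log2 fold change of -3.01 ± 0.34 (SE, limma, adjusted p = 0.00136). Snord15b went from 1331, 911 and 926 RPKM to 69.9, 155 and 218 RPKM, a log2 fold change of -2.65 ± 0.38 (SE, limma, adjusted p = 0.00488). In both every LYC library lay below every HFD library. Snord65, Snord1b and Snord1c each had 3 HFD and 0 LYC libraries over the read cutoff. They had to differ to be tested, so their p-values are a description.

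Snord1b went from 519, 510.0 and 265 RPKM to 98.8, 83.5 and 63.0 RPKM (log2 fold change -2.04 ± 0.32, SE, limma, adjusted p = 0.00704), and Snord1c from 498, 407 and 384 RPKM to 195, 0 and 0 RPKM (log2 fold change -5.95 ± 1.81, SE, limma, adjusted p = 0.0668). The size of the Snord1c value depends on the added 1 in the libraries at 0: it was -8.16 with 0.1 and -3.75 with 10 in its place, and edgeR and DESeq2 on recovered reads both gave -2.32. Its call remained in 1 of the 6 fits that left out a library and was lost in the others. Without LYC1, where the call was kept, the value was -8.66, and without HFD1, HFD2, HFD3, LYC2 or LYC3 it ran from -6.06 to -4.63. The LYC levels of these copies rest on 7 and 6 reads. Elsewhere in the genome 44% of the 28-base words of Snord1b and 100% of those of Snord1c recur.

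Several members that share a host went apart. In Rps3, Snord15a rose from 208, 96.6 and 146 RPKM to 239.8, 521 and 393 RPKM (log2 fold change 1.65 ± 0.37, SE, limma, adjusted p = 0.0263) while Snord15b fell. With the length trend removed Snord15a had 0.28 and no call, and Snord15b -4.04. With scaling on the C/D genes alone Snord15a had 0.29 and no call, and Snord15b -4.01. The log2 ratio of Snord15a to Snord15b was -2.67, -3.22 and -2.66 in HFD and 1.76, 1.74 and 0.85 in LYC, so that Snord15b was the higher of the pair in every HFD library and Snord15a in every LYC library. The pair is shown because its calls were opposite, so this ratio is a description. Apart from the added 1, such a ratio within a library does not depend on its scaling. Rps3 itself read 68.1, 65.0 and 67.0 RPKM in HFD and 52.6, 46.2 and 28.4 RPKM in LYC and was not called.

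In 2410006H16Rik, Snord65 fell while its neighbours in the same gene lay higher in LYC. Snord49b read 64.0, 36.0 and 19.0 RPKM in HFD and 322, 153 and 308 RPKM in LYC, and Snord49a read 130.2, 143 and 38.7 RPKM against 164, 156 and 352 RPKM. Neither was tested for lack of reads, 22 against 19 and 63 against 16. The log2 ratio of Snord49b to Snord65 was -3.23, -3.61 and -5.32 in HFD and 2.83, 1.42 and 1.84 in LYC.

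Rpl13a carries 4 members. Snord32a, Snord33 and Snord35a of this host are known from work on cell death under excess palmitate. Snord34 lay higher in LYC, at 172, 68.8 and 72.6 RPKM in HFD and 729.8, 389.7 and 221 RPKM in LYC (55 and 33 reads, not tested). Snord33 lay lower, at 197, 133 and 190.0 RPKM against 0, 39.2 and 59.2 RPKM (105 and 3 reads, not tested).

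Snord35a also lay lower, at 284, 242 and 175 RPKM against 57.0, 0 and 54.5 RPKM. Its log2 fold change was -3.66 ± 1.39 (SE, limma, adjusted p = 0.121), without a call, although edgeR and DESeq2 on recovered reads called it lower (-2.25 and -2.26), as did limma with library totals, with a pseudocount of 10, with C/D factors, with the replicate block and without LYC2, from -4.87 to -1.66. Snord32a overlapped, at 1087, 591 and 1065 RPKM against 595, 476 and 299.6 RPKM (log2 fold change -0.70 ± 0.41, SE, limma, adjusted p = 0.28). Snord32a was called lower with the length trend removed (-2.48) and with C/D factors (-2.06). The log2 ratio of Snord34 to Snord35a was -0.72, -1.80 and -1.26 in HFD against 3.66, 8.61 and 2.00 in LYC, and 8.61 stands for LYC2, where Snord35a had no read.

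In Rpl23a, Snord4a rose and Snord42b lay higher in LYC (253, 165 and 87.2 RPKM against 553, 292 and 353 RPKM, not tested), while Snord42a was at 81.5, 45.4 and 53.3 RPKM in HFD and at 0 in every LYC library. In Rpl3, which holds the strongly raised Snord43, Snord83b overlapped between groups at 53.2 ± 24.2 and 80.8 ± 46.6 RPKM (SD, n = 3 each). Nop56 encodes a core protein of the C/D particles themselves. Its Snord57 read 128, 90.1 and 76.1 RPKM in HFD and 0, 0 and 38.5 RPKM in LYC. These values rest on 51 reads in HFD and 1 in LYC, and Snord57 was not tested. Snord110, in the same host, read 1709.7, 939 and 629.7 RPKM against 816, 2670.0 and 1316 RPKM and was not called (log2 fold change 0.80 ± 0.46, SE, limma, adjusted p = 0.273).

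**Figure D4:**
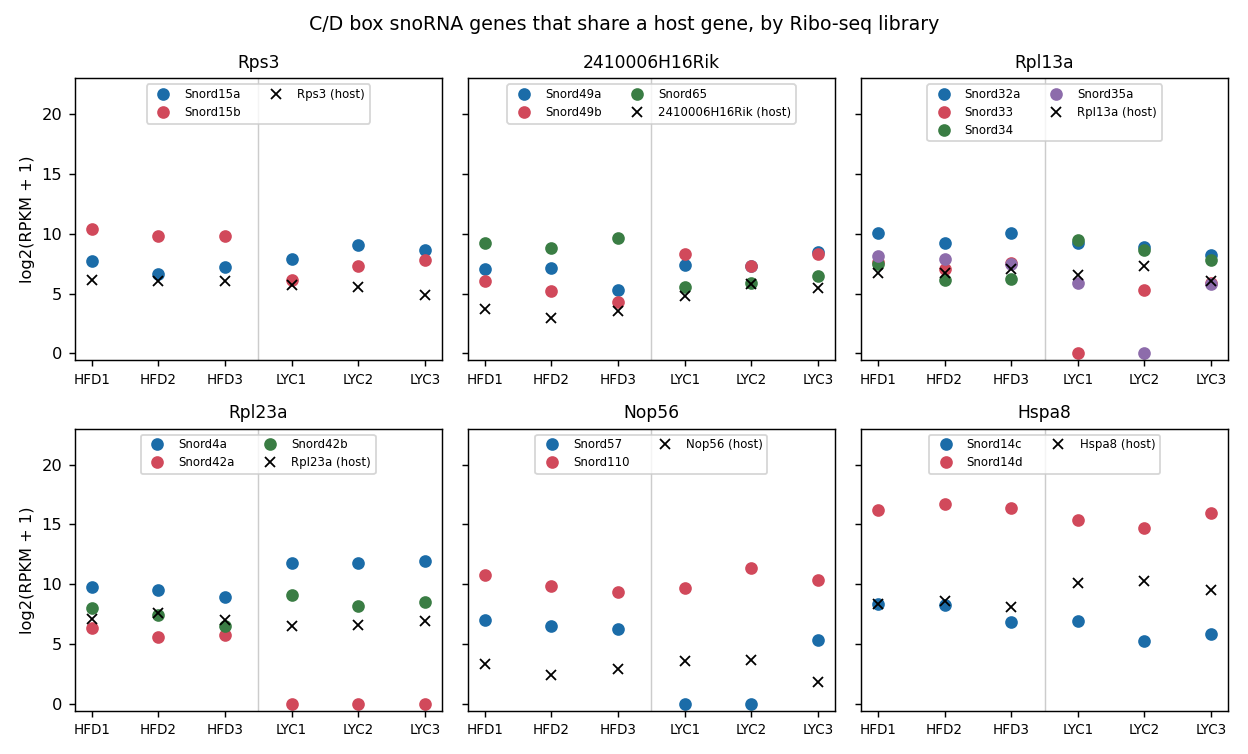
Deposited values as log2(RPKM + 1) (vertical axis) in each Ribo-seq library (horizontal axis) for the members of 6 host genes, with the host itself as crosses. Snord15a and Snord15b change places in Rps3, Snord49b and Snord65 do in 2410006H16Rik, Snord57 is lower in LYC and Snord110 overlaps in Nop56, and Hspa8 is higher in LYC while its snoRNAs are not (Snord14d is shown on its 23-base RPKM length).

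Host genes were compared in the same way. Of the 48 hosts 46 are in the table and 28 were tested by limma, of which 4 were called higher, 0 lower and 24 neither, with a median log2 fold change of 0.26. The 4 are 14.3% of the hosts tested, where 7.08% of all tested genes were called higher, too few for the count to be read as a result about hosts. At an unadjusted p below 0.05, 7 were higher and 0 lower, and edgeR and DESeq2 on recovered reads each called 5 higher and 0 lower. By limma 12 of the 14 called members with a tested host had a host without a call, and the hosts of the remaining 2 were called in the same direction.

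Rabggtb, Hspa8 and Ncl were among the hosts called. Hspa8 went from 319.9, 390.3 and 274.6 RPKM to 1081, 1241 and 736 RPKM, a log2 fold change of 1.91 ± 0.26 (SE, limma, adjusted p = 0.00398), where its Snord14d had -0.78. Rabggtb, with a log2 fold change of 2.93 ± 0.42 (SE, limma, adjusted p = 0.00447), hosts Snord45b, which had too few reads to be tested and overlapped between groups, at 8.15, 45.4 and 0 RPKM in HFD and 56.3, 0 and 0 RPKM in LYC. Ncl, the nucleolin gene, had 1.05 ± 0.31 (SE, limma, adjusted p = 0.0626) and hosts Snord82, which was at 0 in LYC. The hosts of Snord37, Snord2, Snord100 and Snord71 (Eef2, Eif4a2, Rps12 and Ap1g1) had log2 fold changes of -0.35, 0.33, -0.45 and 0.28 and were not called. Over the 21 members tested together with their host, log2 fold changes of snoRNA and host had Pearson's r = 0.17 and Spearman's rho = -0.02, as a description across genes that share libraries.

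Few of the genes that build and process the particles had enough reads to be tested. Of the core protein genes, Fbl (fibrillarin) read 17.1 ± 1.58 RPKM in HFD and 19.4 ± 9.63 RPKM in LYC (SD, n = 3 each) with a log2 fold change of 0.37 ± 0.32 (SE, limma, adjusted p = 0.474). Nop56 and Snu13, which binds the kink formed by the boxes, had 0.40 ± 0.55 and -0.73 ± 0.69 (SE). Nop58 and Rrp9 were not tested. Of the 7 assembly factor genes in the table Pih1d1 alone was tested (0.58 ± 0.34, SE), and of 5 processing genes Nolc1 (0.33) and Xrn2 (0.01). By limma 0 of these 6 tested genes were called and 0 were at an unadjusted p below 0.05, and edgeR and DESeq2 on recovered reads also called 0. Against 13.4% of all tested genes called in either direction, 6 genes are too few for this count to be read as a result. Snu13 fell without LYC2 (-1.68), the 1 call among these genes over the fits that left out a library. The LYC values rest on few reads, 24 for Fbl and 19 for Snu13.

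The 30 members not tested had at most 197 reads in HFD and 33 in LYC. In 9 of them every LYC library lay above every HFD library, in 6 every one lay below, and 15 overlapped, where 2.51% of the 8392 untested genes above 0 in at least 2 libraries lay above and 23.7% below. Of the 36 tested members 19 lay above and 9 below, where 9.85% of all tested genes lay above and 28% below. Over all 66 members 28 lay above and 15 below, against 5.46% and 25.5% of genes by the same rule. The counts below are thus near the background in each case. Those above include Snord7, Snord88a, Snord88c, Snord111 and Snord123, from 8 to 27 reads in LYC. Snord88a and Snord88c, of 1 host, are 84.5% identical and share words.

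The 6 members Snord11, Snord14a, Snord42a, Snord47, Snord82 and Snord93 had no read in LYC. Snord47, in Gas5, read 186, 161 and 111 RPKM in HFD, where 3 reads a library would be worth 126 RPKM on average in LYC. That margin is small in deposited RPKM. The TMM factors, 1.03 to 1.27 in HFD and 0.80 to 1.00 in LYC, take it up, so no bound on the fold is given. For the other 5 no bound is given either, since the HFD level was itself under what 3 reads a library would be worth in LYC (130 RPKM for Snord11, which had 102 ± 14.1 RPKM in HFD, SD, n = 3). Snord11 had 48 reads in HFD. With no filter on low values limma called Snord11, Snord42a, Snord47 and Snord82 lower.

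The called groups overlapped in length and base composition. The 18 higher members had RefSeq lengths of 48 to 148 bases (median 68) and the 5 lower ones 57 to 145 (median 77). Median GC content was 46.4% and 43.9%. A C box by the letters above was found in 12 of the 18 and 3 of the 5. Log2 fold change had Pearson's r = -0.28 with log2 length, -0.16 with GC content, -0.43 with the share of 28-base words found elsewhere (above 0 for 6 of the 36) and -0.32 with log2 mean RPKM in HFD over the 36 tested members, given as a description. The value for the HFD level is partly built in and says nothing of the members. That level enters the fold change itself, and 10 of the 36 had fewer than 3 HFD libraries over the read cutoff. LYC2 was the lowest LYC library for 12 of the 18 higher members.

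**Figure D5:**
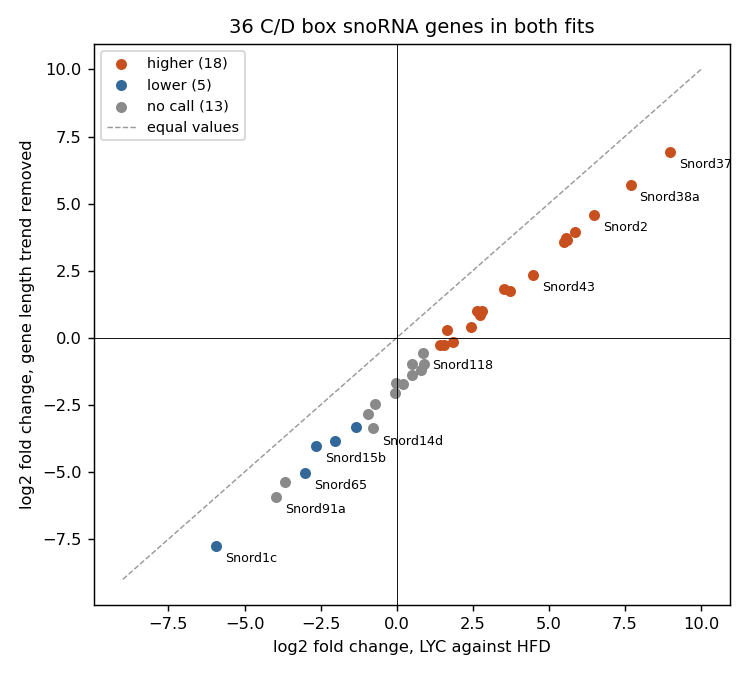
Log2 fold change of the 36 tested members as reported (horizontal axis) against that after each library's trend on gene length was removed (vertical axis), coloured by the reported call, with a dashed line of equal values. Every point lies below the line and the order is largely kept. Snord37 stays high and Snord118 and other members without a call pass below 0.

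The libraries labelled mRNA gave no separate view of these genes. For 55, 49 and 47 of the 66 members the deposited count of LYC2, LYC1 and LYC3 equalled the reads recovered from the Ribo-seq library of the same name. In HFD the matches were between Ribo-seq HFD3 and the library labelled HFD2 (42 members equal), HFD1 and the one labelled HFD3 (25), and HFD2 and the one labelled HFD1 (17). Any other combination of HFD libraries shared 2 or fewer equal counts. By edgeR's quasi-likelihood test on those counts 35 members were tested, 16 called higher and 7 lower, where 9.32% and 7.33% of 5921 genes were, and all 16 and 5 of the 7 had the same call in Ribo-seq. As the reads on these genes are largely the same, this is no second measurement of them. The library totals were not the same. In LYC1, LYC2 and LYC3 the counts labelled mRNA came to 673832, 582184 and 687242, against 349352, 278671 and 365683 Ribo-seq reads on listed genes. In HFD they came to 805557 to 4730705 against 673888 to 4094438. The share of reads given above thus holds for the Ribo-seq totals alone.

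Cell type markers were read as a check on the tissue. The 6 hepatocyte markers summed to 38583 to 42717 RPKM in HFD and 27912 to 36235 RPKM in LYC, with 2 called higher and 0 lower. Alb, which was not called, made up most of these sums, with means of 27134 RPKM in HFD and 17046 RPKM in LYC. Without Alb the LYC sums were not the lower ones. By gene, 3 markers lay above HFD in every LYC library, 2 (Alb and Ttr) lay below and 1 overlapped. Kupffer, endothelial and stellate markers (4 tested of each) had 0 calls by limma, with 0, 1 and 0 genes at an unadjusted p below 0.05 and 1 Kupffer gene called higher by edgeR and by DESeq2, and red cell markers 1 higher of 3. Cholangiocyte markers summed to 4.36 to 5.09 RPKM in HFD and 0.775 to 2.34 RPKM in LYC, and those of lymphocytes and neutrophils to 0.805 to 2.69 and 10.8 to 28.9 RPKM, with no gene of either list tested. No marker was at 0 in all libraries. The part of these shifts in the snoRNA values was not tested.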

How the data were processed

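Ribo-seq libraries (3 HFD, 3 LYC) and 6 libraries labelled mRNA were used. The authors deposited RPKM values for Ribo-seq, and read counts with RPKM for the libraries labelled mRNA, made with cutadapt, Bowtie2, STAR on mm10 and FANSE2. Versions, annotation release and strand setting are not given in the sources used here. Members and gene lists were chosen with earlier results of these data known.

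Reads were recovered from RPKM steps (within 0.02 reads of a whole number for all 15749 genes above 0, 11129 with the deposited gene length and 4620 with a fitted one). Of 25033 entries 26 carried dates as names. The 4 with a name in common were not tested. The depth of each library is that given with the samples. Genes passing edgeR's filterByExpr on these reads were fitted with limma 3.58.1 (trend, two-sided) on log2(RPKM / TMM factor + 1), with Benjamini-Hochberg adjustment. A count test on the recovered reads (edgeR 4.0.16) called 488 genes higher and 384 lower where limma called 398 and 358. Counts of the libraries labelled mRNA were tested with edgeR's quasi-likelihood test. DESeq2 1.42.0 served as an alternative. Positions and introns are from RefSeq and GENCODE annotation of GRCm38.p6. The recovery of known changes was tested on simulated data.

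Members named were the 10 of highest mean RPKM, the 8 higher calls of smallest p, all 5 lower calls, members of Gas5, Snhg1, Rpl13a, Rpl7a, Nop56, Hspa8 and Rack1 or of a host with opposite calls, the processing snoRNAs, and those at the edge of the rule. Some genes covered by this rule, and some host genes, are not reported here. Others were named after their values were seen.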

Additional observations from a re-analysis of the deposited data

How the results depend on the processing

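No member called higher was called lower under any alternative, or the reverse. The number called higher (18) was 9 with the gene length trend removed and 14 to 25 under the other alternatives, and 15 to 17 when 1 library was left out. The number called lower (5) was 13 with factors from the C/D genes alone, where 3096 of all 5624 tested genes were called lower. It was also 13 with the length trend removed, where 320 of the 5624 were. It was 8 with no filter on low values, 9 with a mean RPKM of at least 1 as the filter, 3 at an unadjusted p below 0.001, 3 without members whose 28-base words recur elsewhere (chosen after seeing the data), and 3 to 5 when 1 library was left out, 3 without LYC3. The median log2 fold change (1.15) was -0.21 with C/D factors, -0.41 with the length trend removed, 0.85 with library totals, 1.60 without members with recurring words and 0.86 over members past the cutoff in all 6 libraries (both chosen after seeing the data), and 0.91 to 1.28 when 1 library was left out.

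Values turned below 0 with C/D factors and with the length trend removed for Snord22 (-0.87 and -0.99), Snord95 (-0.86 and -1.39), Snord104 (-0.48 and -0.96), Snord110 (-0.56 and -1.19) and Snord118 (-0.50 and -0.57), none of which has a call in the report, though Snord95 was called lower with the length trend removed, and for Snord12 (0.20, then -1.17 and -1.72), which was called lower in both. With the length trend removed 3 members called higher turned below 0, Snord66 (-0.16), Snord89 (-0.26) and Snord96a (-0.26), none of them called lower. In the libraries labelled mRNA, 25 rather than 16 were called higher with no filter, and 14 to 18 when 1 library was left out. The 4 calls of host genes were 3 to 5 throughout, and the 0 calls of core protein and assembly genes were 0 to 1 when 1 library was left out. The rise in read share (3.98 percentage points) was 2.00 without Snord43 (chosen after seeing the data) and 3.28 to 5.08 otherwise.

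The replicate numbers of the labels did not pair the libraries (correlations of same-numbered deviations 0.12, 0.03 and 0.01). With the replicate block 18 members were called higher and 6 lower. Depth limits the low members most, since 1 read on 60 bases is worth 40.4 to 53.6 RPKM in LYC.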
